A study of Mus musculus with 16 samples.

Results

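Immediate early genes are genes whose transcripts accumulate within minutes of a stimulus, before any new protein has to be made. The 32 described here are a list of gene names, and all 32 were found among the 33730 gene IDs counted in mouse liver. The list holds the FOS and JUN genes (Fos, Fosb, Fosl1, Fosl2, Jun, Junb and Jund), other basic leucine zipper factors (Atf3, Maff, Cebpb and Cebpd), zinc finger factors (Egr1, Egr2, Klf2, Klf4, Klf6 and Klf10), Nr4a1, Nr4a2 and Myc, the IER genes Ier2, Ier3 and Ier5, the phosphatases Dusp1 and Dusp6, and the growth arrest and survival genes Btg1, Btg2, Zfp36, Gadd45a, Gadd45b, Gadd45g and Mcl1. In the tests across genes 31 of the 32 passed the filter on low counts. Fosl1 did not, with 32 reads over all 16 libraries, 14 of them in 1 WT DMSO library.

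The libraries came from livers of C57BL/6 mice that carried wild-type Nrf2 (WT) or were Nrf2-/- (KO). Nrf2 is the stress-sensing transcription factor encoded by Nfe2l2, and CDDO-Me (bardoxolone methyl) is a triterpenoid that activates it by acting on its inhibitor Keap1. The 4 groups were KO mice given CDDO-Me at 3 mg/kg in DMSO, WT mice given the same dose, KO mice left untreated, and WT mice given DMSO at 1 µL/g, with 4 libraries in each. The sample labels place the intraperitoneal injections 24 h and 1 h before partial hepatectomy, with the day 0 liver taken as the piece removed at that operation. The series' design text instead places the resection 24 h after the treatments, so the interval since the last injection cannot be stated. The KO untreated group was the only one that received no injection. It therefore differed from WT DMSO in both genotype and injection, and from KO CDDO-Me in both drug and injection, and within each of these pairs the effects cannot be told apart. The deleted part of Nfe2l2, and the cells that lack it, are not stated by the labels.

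The FOS and JUN proteins pair through their leucine zippers to form AP-1, which binds DNA at TGACTCA-like sites. ATF3 pairs with JUN proteins and binds cyclic AMP response elements (CRE), and the C/EBP factors drive acute phase genes in hepatocytes. In liver many of these genes are known to rise soon after partial hepatectomy, when quiescent hepatocytes prepare to divide. Their transcripts are short-lived because of AU-rich elements, to which the ZFP36 protein binds, and DUSP1 and DUSP6 switch off the MAP kinases that induce them.

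The promoters of 5 members are shown because Atf3, Junb and Btg2 had the lowest p-values between the KO groups in the comparison of the drug with no treatment, while Fos and Jun encode the core of AP-1. The windows are the 250 bases before the RefSeq start in the GRCm38.p6 table, and 26 of the 32 members had one. Capitals mark TGACG, the CRE half-site, on either strand. The Atf3 window is chr1:191183334-191183583 on the minus strand, and the Junb window is chr8:84978749-84978998 on the minus strand. The Btg2 window is chr1:134079156-134079405 on the minus strand, the Fos window chr12:85473640-85473889 on the plus strand and the Jun window chr4:95052223-95052472 on the minus strand.
Atf3: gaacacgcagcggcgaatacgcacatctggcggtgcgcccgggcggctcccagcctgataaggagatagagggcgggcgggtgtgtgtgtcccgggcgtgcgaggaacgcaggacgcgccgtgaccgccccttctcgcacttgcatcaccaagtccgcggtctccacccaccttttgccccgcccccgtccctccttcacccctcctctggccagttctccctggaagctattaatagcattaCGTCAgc
Junb: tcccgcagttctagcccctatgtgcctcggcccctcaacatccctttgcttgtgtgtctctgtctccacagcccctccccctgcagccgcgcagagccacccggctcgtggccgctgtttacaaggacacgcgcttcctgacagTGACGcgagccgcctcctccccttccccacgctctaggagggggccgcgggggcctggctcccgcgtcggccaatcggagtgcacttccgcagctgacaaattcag
Btg2: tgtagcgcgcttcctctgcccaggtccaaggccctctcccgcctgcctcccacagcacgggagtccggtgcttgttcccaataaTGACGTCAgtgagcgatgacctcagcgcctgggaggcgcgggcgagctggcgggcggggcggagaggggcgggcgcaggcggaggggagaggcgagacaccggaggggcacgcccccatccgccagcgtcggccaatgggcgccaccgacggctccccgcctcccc
Fos: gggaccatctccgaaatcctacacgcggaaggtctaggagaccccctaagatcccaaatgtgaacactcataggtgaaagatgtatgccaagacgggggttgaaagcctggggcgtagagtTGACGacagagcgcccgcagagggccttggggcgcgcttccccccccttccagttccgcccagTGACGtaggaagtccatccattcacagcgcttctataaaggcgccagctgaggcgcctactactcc
Jun: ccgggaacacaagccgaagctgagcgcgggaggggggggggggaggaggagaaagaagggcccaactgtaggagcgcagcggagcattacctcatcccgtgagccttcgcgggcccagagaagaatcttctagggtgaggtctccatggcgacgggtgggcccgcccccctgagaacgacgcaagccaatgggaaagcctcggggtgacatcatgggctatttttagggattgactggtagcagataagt
The Btg2 promoter held the full palindrome TGACGTCA, 166 to 159 bases before the start. The half-site lay 7 to 3 bases before the start in Atf3, 106 to 102 bases before it in Junb, and at 129 to 125 and 66 to 62 bases before it in Fos. These letters were not in the Jun window. Over the 26 members, TGACG on either strand was present in 12, or 46.2%, against 17.9% of 27018 promoter windows of the same length. The palindrome TGACGTCA, which contains the half-site on both strands, was present in 2, Btg2 and Dusp1 (7.69% against 1.62%). The AP-1 site TGACTCA was present in none, against 4.43% of all windows. The pattern TGACNNNGC, the core of the antioxidant response element to which Nrf2 binds, was present in 5, Dusp1, Gadd45g, Klf6, Maff and Nr4a2 (19.2% against 10.2%), and in Nr4a2 it overlapped a half-site. The CArG box of serum response factor was matched in 1, Zfp36 (3.85% against 1.40%), and TATAAA in 5 (19.2% against 13.0%). A match is a description of the letters in a window and was not tested against any binding.

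The libraries held 21432833 to 33827313 counted reads for KO CDDO-Me and 13809649 to 99284626 for WT CDDO-Me, and 14019793 to 24194378 for KO untreated against 12002317 to 26948425 for WT DMSO. Levels of Nfe2l2 ran from 15.7 to 21.0 CPM (read counts per 1000000 reads of a library size scaled by the trimmed mean of M-values) in KO livers given CDDO-Me and 36.6 to 45.5 in WT livers given it, and 19.9 to 51.7 in untreated KO against 42.8 to 74.9 in WT DMSO livers. KO untreated 1, with 51.7 CPM, lay within the WT range. Nqo1, a target of Nrf2, separated the genotypes in every library, with 0.766 to 1.98 CPM in KO livers given CDDO-Me and 30.7 to 45.9 in WT livers given it, and 0.434 to 1.19 in untreated KO against 3.21 to 4.22 in WT DMSO livers. In 4 libraries, KO untreated 1 and 2 and WT DMSO 1 and 2, intronic transcripts and unclassified loci took 0.673% to 0.967% of the reads, against 0.186% to 0.407% in the other 12. Another set of 6, WT CDDO-Me 2 to 4 and WT DMSO 1 to 3, had 0.173% to 0.634% of reads on ribosomal RNA genes, against 0.00108% to 0.0368% elsewhere. WT CDDO-Me 1 and WT DMSO 4 thus stood apart from the rest of their groups in this respect. WT CDDO-Me 1 also held 99284626 reads, against 13809649 to 14907764 in the rest of its group. Neutrophil and monocyte markers summed to 44.6 CPM in WT DMSO 4 and to 5.02 to 19.3 CPM in the other libraries. The markers of hepatocytes were the most abundant of the cell type lists in every group, summing to 63012 to 144250 CPM. In bulk liver RNA, fewer cells of a type and less RNA per cell cannot be told apart.

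On the length-scaled scale of the deposited FPKM values, Gadd45g, which encodes a stress protein that binds MAP kinase kinase kinases, was the highest member in every group. Its mean was 84.2 ± 30.7 FPKM in KO CDDO-Me, 104 ± 30.8 in WT CDDO-Me, 84.2 ± 45.5 in KO untreated and 111 ± 40.1 in WT DMSO (SD, n = 4 each). Junb ranked second in KO CDDO-Me (44.8 ± 31.5 FPKM), WT CDDO-Me (63.1 ± 21.2) and WT DMSO (51.2 ± 24.2), and eighth in KO untreated (13.2 ± 2.08). In KO untreated the second place was held by Mcl1, an anti-apoptotic BCL2 family member, with 26.1 ± 2.06 FPKM. In the other groups Mcl1 stood at 27.2 ± 2.41 FPKM in KO CDDO-Me, 22.2 ± 2.56 in WT CDDO-Me and 24.0 ± 4.09 in WT DMSO. Fosl1, Egr2, Nr4a2, Fosb and Klf4 were below 1 FPKM on average in all 4 groups.

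**Figure D1:**
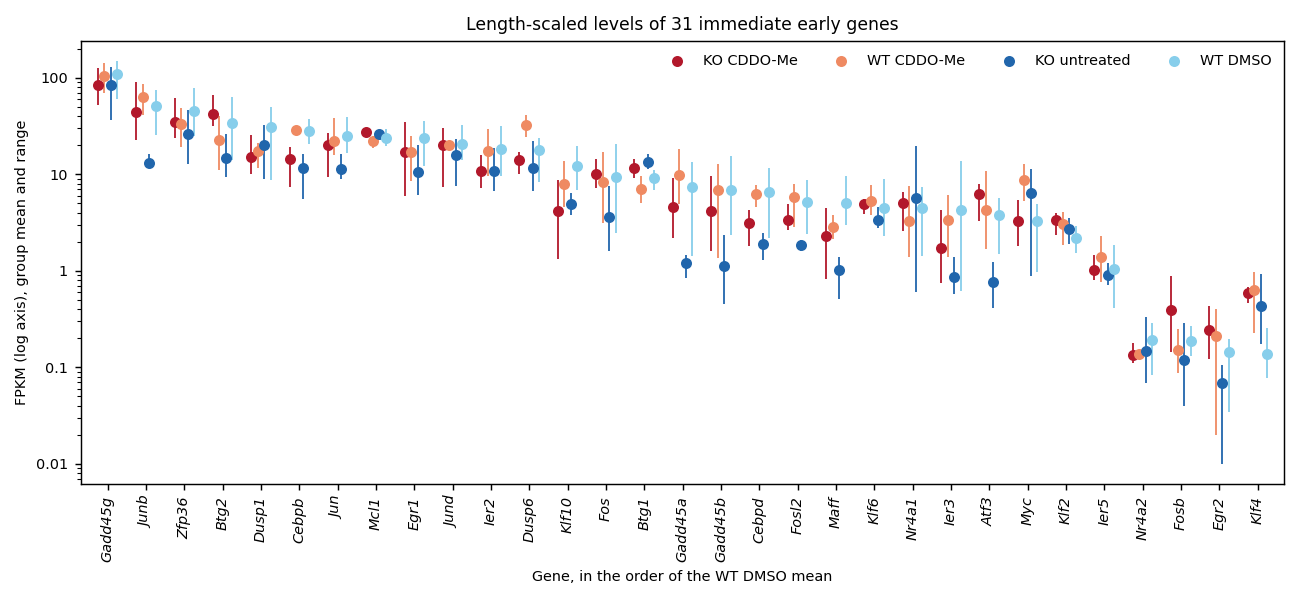
Length-scaled level (FPKM, log axis) of the 31 tested members, in the order of the WT DMSO mean; points are group means and lines run from the lowest to the highest of 4 libraries, with 1 Egr2 value of 0 (KO untreated 2) drawn at 0.01. Gadd45g is highest in every group, and Junb stands at 44.8 FPKM in KO CDDO-Me, 63.1 in WT CDDO-Me, 13.2 in KO untreated and 51.2 in WT DMSO.

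KO untreated livers were the lowest group for most members. Their mean CPM was the lowest of the 4 groups for 24 of the 31 tested members, where 21.4% of all 16206 genes tested had their lowest mean in that group. The CPM of the members summed to 841 to 1533 in KO and 1113.5 to 1553 in WT libraries after CDDO-Me, to 600 to 725 in KO untreated libraries and to 907 to 1573 in WT DMSO. All 4 KO untreated libraries lay below all 12 others for 4 members, Fosl2, Junb, Atf3 and Gadd45a, a pattern found in 0.518% of all genes tested. Each library's median deviation from the members' own means was -0.20 to 0.48 (log2) in KO and 0.18 to 1.01 in WT libraries after CDDO-Me, -1.24 to -0.62 in KO untreated libraries and -0.16 to 0.57 in WT DMSO. Within groups, single libraries stood high for many members. KO CDDO-Me 4 was the highest library of its group for 20 of the 31, WT CDDO-Me 1 for 15 and WT DMSO 4 for 18. The same share over all genes was not computed, so a trait of these libraries and one of the members cannot be told apart.

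**Figure D2:**
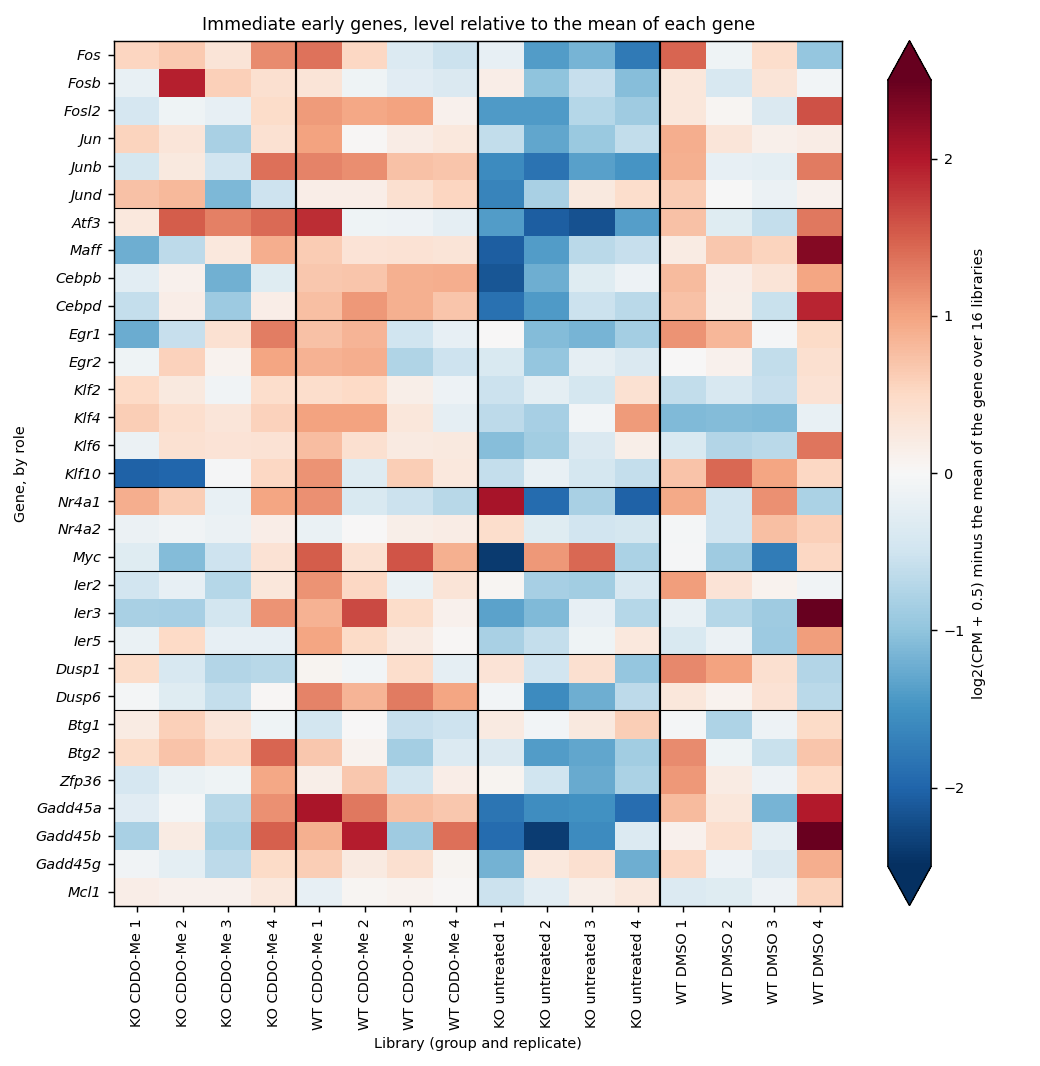
Level of each tested member in each library, as log2(CPM + 0.5) minus that member's mean over 16 libraries (red above, blue below); rows are grouped by role and vertical lines part the 4 groups. The 4 KO untreated columns are blue for most members, and columns such as KO CDDO-Me 4, WT CDDO-Me 1 and WT DMSO 4 are redder than their neighbours.

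In KO untreated against WT DMSO livers, 7 of the 31 members were lower and none was higher at an adjusted p under 0.05 (edgeR's quasi-likelihood test over all 16206 genes, Benjamini-Hochberg adjustment). The background in this comparison was 223 genes called, 1.38% of those tested, with 157 (0.969%) lower. The log2 fold change was negative for 27 members and positive for 4, with a median of -1.02 against 0.00 for all genes. At an unadjusted p under 0.05, 17 members were lower, against 7.46% of all genes, and 1 was higher, against 6.65%. The groups did not overlap, with KO untreated lower, for 9 members, against 3.04% of all genes. As KO untreated mice were not injected, genotype and injection cannot be told apart for any of these values.

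Among the FOS and JUN genes 3 fell and all 6 tested had negative values. Junb (ENSMUSG00000052837, chr8:84974484-84978718), which encodes an AP-1 subunit, had 26.5, 21.7, 30.8 and 28.2 CPM in KO untreated livers and 147, 68.5, 67.0 and 195 CPM in WT DMSO livers. The KO untreated values lay within a narrow band below every WT DMSO value, and the WT DMSO values were spread. The log2 fold change was -2.16 ± 0.41 (SE; adjusted p = 0.0145), a level 0.224 times that of WT DMSO. Jun (ENSMUSG00000052684, chr4:95049034-95052222), the core JUN subunit, had 37.1, 23.0, 29.8 and 36.9 CPM in KO untreated and 107, 70.7, 62.6 and 64.9 CPM in WT DMSO livers, again without overlap. Its log2 fold change was -1.27 ± 0.29 (adjusted p = 0.0391). Fosl2 (ENSMUSG00000029135, chr5:32135801-32157842), a FOS family member known as Fra-2, had 12.6, 12.6, 20.7 and 18.2 CPM in KO untreated and 41.5, 35.6, 26.4 and 104 CPM in WT DMSO livers, and fell by 1.70 ± 0.37 on the log2 scale (adjusted p = 0.0302). WT DMSO 4 was far above the other 3 libraries of its group for Fosl2. Fos itself (ENSMUSG00000021250, chr12:85473890-85477273) had 12.5, 5.26, 6.28 and 3.92 CPM in KO untreated and 40.9, 13.5, 20.1 and 7.25 CPM in WT DMSO livers. These groups overlapped, and Fos did not pass the test (-1.55 ± 0.51, adjusted p = 0.158; -0.95 without WT DMSO 1). Fosb (-0.96) and Jund (-0.40) did not pass either.

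Of the other basic leucine zipper factors 3 of 4 fell. Atf3 (ENSMUSG00000026628, chr1:191170296-191218039), a stress-induced repressor of the ATF family, had 1.88, 1.01, 0.897 and 1.92 CPM in KO untreated livers and 9.96, 4.58, 3.68 and 15.2 CPM in WT DMSO livers. Every KO untreated library was below every WT DMSO library, and the log2 fold change was -2.55 ± 0.57 (adjusted p = 0.0372). Maff (ENSMUSG00000042622, chr15:79346621-79359076), a small MAF protein that can pair with Nrf2, had 0.762, 1.50, 2.78 and 3.03 CPM in KO untreated and 5.53, 7.91, 7.16 and 25.3 CPM in WT DMSO livers. The groups did not overlap, WT DMSO 4 was the highest by a wide margin, and the log2 fold change was -2.51 ± 0.56 (adjusted p = 0.0372). Cebpd (ENSMUSG00000071637, chr16:15887286-15891031), an acute phase factor, had 3.45, 4.87, 9.44 and 8.52 CPM in KO untreated and 23.4, 15.5, 9.23 and 53.7 CPM in WT DMSO livers. WT DMSO 3 lay inside the KO untreated range, and the log2 fold change was -1.95 ± 0.45 (adjusted p = 0.0421). Its relative Cebpb (ENSMUSG00000056501) had 5.89, 11.7, 22.5 and 25.3 CPM in KO untreated and 48.6, 31.4, 35.1 and 55.9 CPM in WT DMSO livers. These did not overlap, but the test was not passed (-1.39 ± 0.36, adjusted p = 0.0745).

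Of the 7 growth arrest and survival genes 1 fell. Gadd45a (ENSMUSG00000036390, chr6:67035096-67037457), a DNA damage response gene, had 1.63, 2.08, 2.17 and 1.53 CPM in KO untreated livers and 12.6, 8.74, 2.88 and 29.5 CPM in WT DMSO livers. The KO untreated libraries were nearly equal and lay below WT DMSO libraries that ranged widely, and the log2 fold change was -2.87 ± 0.59 (adjusted p = 0.0230). Gadd45b had 0.965, 0.579, 1.37 and 3.88 CPM in KO untreated and 5.53, 7.01, 4.28 and 30.6 CPM in WT DMSO livers, without overlap but also without passing the test (-2.80 ± 0.81, adjusted p = 0.107). Without WT DMSO 4 its value was -1.70 (adjusted p = 0.316), and without KO untreated 4 it was -3.61. The antiproliferative gene Btg2 had 51.0, 24.4, 26.3 and 35.7 CPM in KO untreated and 149, 60.4, 44.3 and 106 CPM in WT DMSO livers (-1.39 ± 0.39, adjusted p = 0.0969). Zfp36 had a value of -1.02 ± 0.35 (adjusted p = 0.175), while Gadd45g (-0.57), Mcl1 (-0.06) and Btg1 (0.33) were nearer to 0.

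None of the zinc finger factors, nuclear receptors, IER genes or phosphatases passed the test in KO untreated against WT DMSO livers. Egr1 (ENSMUSG00000038418), a serum-response zinc finger factor, had 63.8, 29.6, 28.0 and 35.1 CPM in KO untreated and 138, 113, 62.5 and 88.7 CPM in WT DMSO livers. KO untreated 1 alone reached the WT DMSO range, and the value was -1.36 ± 0.47 (adjusted p = 0.176). Myc (ENSMUSG00000022346), a growth regulator, had 1.73, 24.6, 31.5 and 6.31 CPM in KO untreated and 11.0, 5.90, 3.01 and 16.4 CPM in WT DMSO livers, and had a positive value (0.81 ± 0.66, adjusted p = 0.673). Both its lowest and its highest KO untreated libraries lay outside the WT DMSO range. Klf10 did not overlap between the groups (-1.44 ± 0.48, adjusted p = 0.164), and Ier3 (-2.64 ± 0.92) and Ier2 (-0.90 ± 0.32) reached an unadjusted p under 0.05 only, as did Dusp6 (-0.84 ± 0.29). The Ier3 value rested on WT DMSO 4, without which it was -0.30 (adjusted p = 0.888). Klf4 was the 1 member higher in KO untreated at that level (1.43 ± 0.60, adjusted p = 0.281), with 0.56 without KO untreated 4 and 2.20 without WT DMSO 4. The remaining members, Egr2, Klf2, Klf6, Nr4a1, Nr4a2, Ier5 and Dusp1, lay between -1.22 and 0.09.

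The calls changed when single libraries were left out. Without KO untreated 2 none of the 7 passed (adjusted p 0.0581 to 0.129). Without KO untreated 3 or KO untreated 4 only Junb passed (adjusted p 0.0393 and 0.0467), and without KO untreated 1 only Junb of the 7 did (adjusted p 0.0414). Without WT DMSO 4, Junb and Jun passed, and the values of Gadd45a (-2.12, adjusted p = 0.0558), Atf3 (-2.08, adjusted p = 0.0881), Maff (-1.75, adjusted p = 0.0930), Cebpd (-1.28, adjusted p = 0.103) and Fosl2 (-1.10, adjusted p = 0.0532) were nearer to 0. Without WT DMSO 1, Atf3, Jun and Cebpd were lost (adjusted p 0.0592, 0.0837 and 0.0532), and without WT DMSO 2, Jun was (adjusted p = 0.0625). A CDDO-Me library enters this comparison only through the filter, scaling and estimate of spread that all libraries share. Leaving 1 of them out lost 1 to 3 of Atf3, Cebpd, Jun and Maff for 7 of the 8 (adjusted p of the lost calls up to 0.0651). Without the 4 intron-rich libraries, which leaves 2 against 2, none passed (adjusted p 0.102 to 0.229), with log2 fold changes of -3.18 for Gadd45a, -2.78 for Atf3, -2.52 for Maff, -2.18 for Junb, -1.85 for Cebpd, -1.78 for Fosl2 and -0.96 for Jun. With the replicate number as a block, 8 members passed: Cebpd was lost (adjusted p = 0.0531), and Btg2 (adjusted p = 0.0348) and Gadd45b (adjusted p = 0.0224) were gained. In a fit of these 2 groups alone without the block, no member passed (edgeR, adjusted p of the 7 from 0.0709 to 0.280). That fit called 20 genes over all genes. With the block in a fit of these 2 groups alone, chosen after seeing the data, 10 passed. Atf3, Maff, Jun and Junb remained, and Fosl2 (adjusted p = 0.128), Gadd45a (adjusted p = 0.154) and Cebpd (adjusted p = 0.182) were lost. Btg2, Gadd45b, Fos, Klf10, Egr1 and Zfp36 were gained, and the count over all genes is not given for this fit. Kupffer cell markers moved the other way, with 10 of 10 positive, 1 of them (Adgre1) called, and sums of 274 to 501 CPM in KO untreated, against 232 to 299 CPM in WT DMSO. Liver endothelial markers (10 of 10 positive) and stellate cell and fibroblast markers (9 of 10 positive) did so too, with none called. Neutrophil and monocyte markers had 2 positive and 4 negative of 6 tested, and sums of 6.09 to 8.08 CPM in KO untreated, against 5.02 to 44.6 CPM in WT DMSO. The part of these cells in the members' values was not tested.

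**Figure D3:**
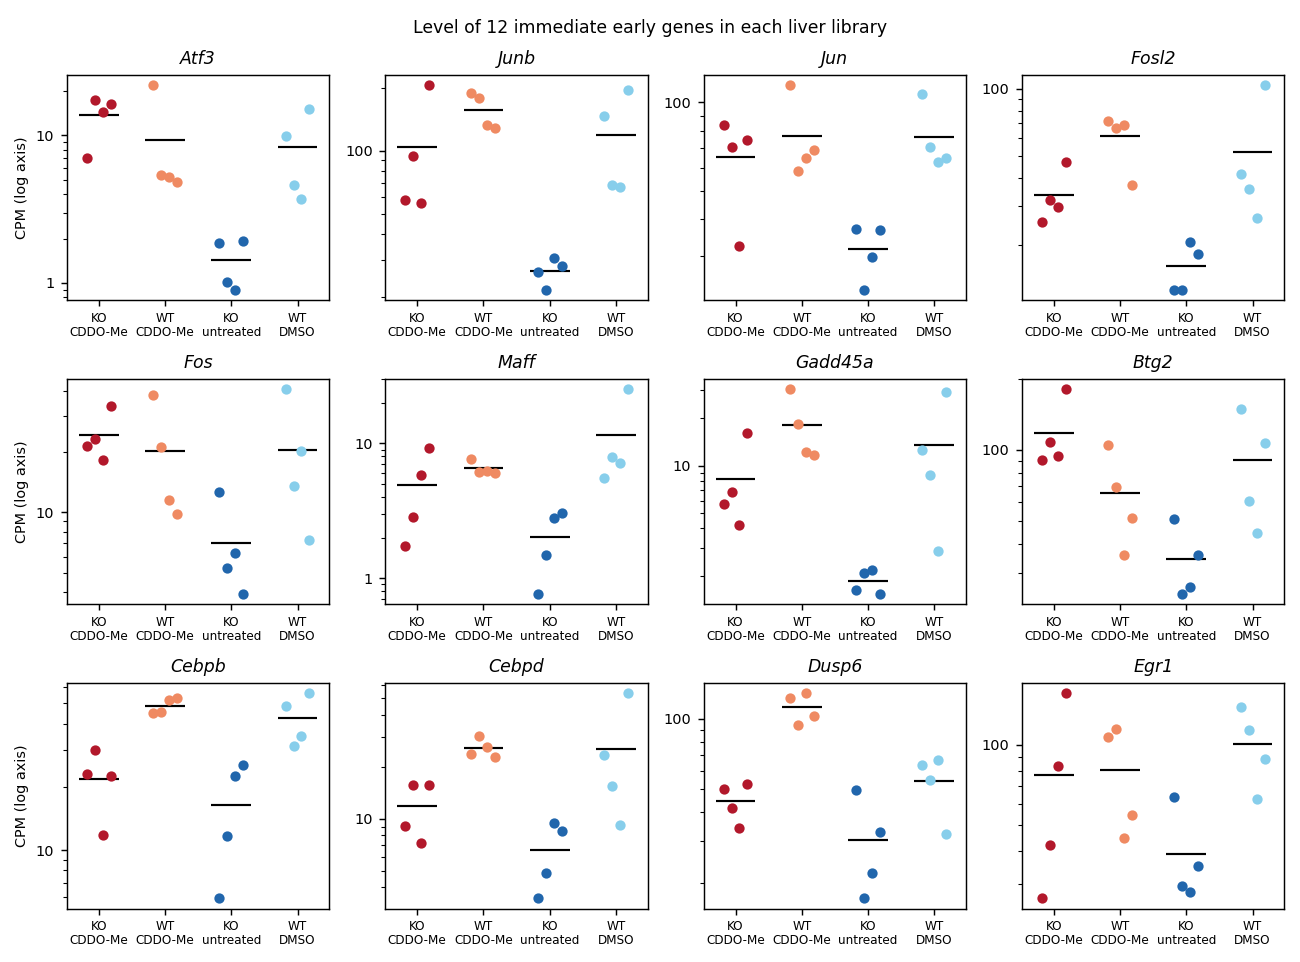
Level (CPM, log axes) of 12 members in each library; each point is 1 library and the bar is the group mean, for 4 libraries a group. For Atf3, Junb, Fosl2 and Gadd45a the 4 KO untreated points lie below all others, while the Dusp6 points of KO CDDO-Me lie below those of WT CDDO-Me.

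In KO CDDO-Me against KO untreated livers, Atf3 alone rose, and none of the 31 members fell, at an adjusted p under 0.05 (edgeR's quasi-likelihood test, Benjamini-Hochberg adjustment). Only 21 of the 16206 genes tested were called here, 0.13%, with 17 (0.105%) higher and 4 (0.0247%) lower. The log2 fold change was positive for 28 members and negative for 3, with a median of 0.72 against -0.04 for all genes. At an unadjusted p under 0.05, 11 members were higher, against 6.24% of all genes, and none was lower, against 9.58%. KO CDDO-Me lay wholly above KO untreated for 7 members, Fos, Fosl2, Junb, Egr2, Atf3, Btg2 and Gadd45a, against 5.98% of all genes. Drug and injection cannot be told apart in this pair, and it shares the KO untreated libraries with the comparison above.

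Atf3 had 7.0, 17.4, 14.5 and 16.3 CPM in KO CDDO-Me livers, against 1.88, 1.01, 0.897 and 1.92 CPM in KO untreated livers. All 4 treated libraries were higher, KO CDDO-Me 1 by the least. By edgeR the difference was 3.27 ± 0.58 on the log2 scale (adjusted p = 0.0300), a 9.63-fold higher level. The call was lost without KO CDDO-Me 2, 3 or 4 or without any 1 KO untreated library (log2 fold changes of 3.10 to 3.45, adjusted p 0.0584 to 0.162), and without the 4 intron-rich libraries (3.30, adjusted p = 0.187). Without KO CDDO-Me 1 the call was kept (3.48, edgeR, adjusted p = 0.0379). Why the other fits lost it was not tested.

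Among the FOS and JUN genes 6 of 6 tested were positive, and 5 of them reached an unadjusted p under 0.05 without passing the adjusted test. Junb had 58.5, 94.5, 56.5 and 206 CPM in KO CDDO-Me livers, all above the KO untreated libraries, with KO CDDO-Me 4 far above the other 3 (1.96 ± 0.41, adjusted p = 0.0777). Fos had 21.4, 23.2, 18.2 and 33.7 CPM in KO CDDO-Me livers and did not overlap with KO untreated, where the highest was 12.5 (1.79 ± 0.51, adjusted p = 0.182). Jun had 83.9, 70.5, 32.4 and 74.7 CPM in KO CDDO-Me livers, and KO CDDO-Me 3 lay within the KO untreated range (1.05 ± 0.29, adjusted p = 0.172). Fosl2 had 25.4, 31.7, 29.7 and 47.0 CPM in KO CDDO-Me livers, again without overlap (1.06 ± 0.36, adjusted p = 0.230). Fosb was low, at 0.890, 5.60, 1.88 and 1.58 CPM in KO CDDO-Me against 1.27, 0.290, 0.566 and 0.256 CPM in KO untreated livers, and 1 library, KO CDDO-Me 2, was well above the rest (2.06 ± 0.57, adjusted p = 0.172; 1.30 without it). Jund had the smallest value of this family (0.42 ± 0.43).

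Of the growth arrest genes, Btg2 had 90.9, 108, 93.7 and 181 CPM in KO CDDO-Me livers, all above the highest KO untreated library at 51.0. Its log2 fold change of 1.78 ± 0.40 missed the threshold (edgeR, adjusted p = 0.0960). Gadd45a had 5.75, 6.84, 4.21 and 16.2 CPM in KO CDDO-Me livers, also without overlap (2.15 ± 0.58, adjusted p = 0.169). Without WT DMSO 4, a library of neither group that enters through the shared filter, scaling and estimate of spread, Atf3, Btg2, Gadd45a and Junb passed. Over all genes 133 were then called, against 21 in the main fit. Gadd45b (1.95 ± 0.80), Egr2 (1.96 ± 0.79) and Maff (1.29 ± 0.55) reached an unadjusted p under 0.05 as well, and Gadd45b had 1.13 without KO CDDO-Me 4 and 2.77 without KO untreated 4.

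Egr1 had 26.6, 42.3, 82.9 and 156 CPM in KO CDDO-Me livers, a wider range than that of KO untreated, which it overlapped (0.98 ± 0.47, adjusted p = 0.321). Myc had 8.98, 5.03, 7.68 and 14.7 CPM in KO CDDO-Me livers, inside the range of the KO untreated libraries (-0.82 ± 0.65, adjusted p = 0.503). Dusp1 (-0.19) and Btg1 (0.00 after rounding) were the other negative values. The remaining members, among them Cebpb (0.41), Cebpd (0.86), Zfp36 (0.72) and Ier3 (1.10), were positive and did not pass.

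Marker lists of other cell types moved in both directions in this pair. Stellate cell and fibroblast markers had 1 positive and 9 negative of 10, with sums of 316 to 461 CPM in KO CDDO-Me and 317 to 836 CPM in KO untreated. Kupffer cell markers had 9 positive and 1 negative, with sums of 393 to 591 CPM in KO CDDO-Me and 274 to 501 CPM in KO untreated, and none of either list was called. Erythroid markers had 5 positive and 0 negative, with a median log2 fold change of 0.73, against 0.72 for the members. Liver endothelial markers had 1 positive and 9 negative of 10, and none of these 2 lists was called. The part of any of these cells in the members' values was not tested.

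In WT CDDO-Me against WT DMSO livers, both injected, no member was called by edgeR, where 118 genes (0.728%) were, 90 (0.555%) of them higher and 28 (0.173%) lower. Values were positive for 17 members and negative for 14, with a median of 0.01 against -0.02 for all genes. At an unadjusted p under 0.05, 3 members, Dusp6, Klf4 and Myc, were higher (background 6.91%) and none lower (background 8.42%). DESeq2 called 2 of these, Dusp6 (adjusted p = 0.0275) and Klf4 (adjusted p = 0.0208).

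Dusp6 (ENSMUSG00000019960, chr10:99263231-99267489), which encodes the cytoplasmic ERK phosphatase, had 123, 94.1, 129 and 103 CPM in WT CDDO-Me livers and 63.6, 54.9, 66.6 and 32.3 CPM in WT DMSO livers. It was the 1 member whose WT CDDO-Me libraries all lay above WT DMSO, against 4.36% of all genes. Its log2 fold change of 1.05 ± 0.29 missed the threshold (edgeR, adjusted p = 0.115). Klf4, a zinc finger factor of low abundance here, had 2.81, 2.83, 1.50 and 0.918 CPM in WT CDDO-Me livers and 0.273, 0.278, 0.268 and 0.964 CPM in WT DMSO livers. The first 3 WT DMSO libraries were nearly equal and WT DMSO 4 overlapped the treated group (2.13 ± 0.60, adjusted p = 0.123). Klf4 passed when WT DMSO 4 was left out (2.91, adjusted p = 0.0425) or KO untreated 4 was (2.13, adjusted p = 0.0478). Myc had 33.2, 14.9, 34.3 and 21.2 CPM in WT CDDO-Me livers, of which 1 lay below the highest WT DMSO library at 16.4 (1.51 ± 0.66, adjusted p = 0.300).

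The AP-1 genes, Atf3 and Egr1 had values between -0.33 and 0.39 between the WT groups, and none reached an unadjusted p under 0.05. Fos had 38.0, 21.0, 11.5 and 9.82 CPM in WT CDDO-Me livers, nearly the same range as in WT DMSO (0.00 ± 0.49 after rounding, adjusted p = 0.997). Jun had 115, 58.3, 64.5 and 68.7 CPM in WT CDDO-Me livers (0.01 ± 0.28, adjusted p = 0.991). Junb had 188, 178, 133 and 129 CPM in WT CDDO-Me livers, within the wider WT DMSO range of 67.0 to 195 (0.39 ± 0.39, adjusted p = 0.607). Atf3 had 22.1, 5.36, 5.22 and 4.86 CPM in WT CDDO-Me livers, so that 1 library stood apart and the other 3 lay among the WT DMSO values (0.20 ± 0.52, adjusted p = 0.860). Egr1 had 106.5, 115, 44.6 and 54.7 CPM in WT CDDO-Me livers (-0.33 ± 0.46, adjusted p = 0.729). With 4 libraries a group and a SE near 0.5, changes well above that size can go uncalled for Fos, Atf3 and Egr1. Between the KO groups, Fos was not called at 1.79 ± 0.51 (edgeR, adjusted p = 0.182). In the same pair 10 of 10 Kupffer cell markers were positive and 4 of them (Cd5l, Marco, Clec4f and Adgre1) were called, with sums of 492 to 660 CPM in WT CDDO-Me and 232 to 299 CPM in WT DMSO. Stellate cell and fibroblast markers (10 of 10 positive; 564 to 670 against 291 to 490 CPM) and liver endothelial markers (9 of 10 positive; 595 to 659 against 382 to 565 CPM) did not overlap between WT CDDO-Me and WT DMSO either, with none called. Their part in the Dusp6, Klf4 and Myc values was not tested.

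**Figure D4:**
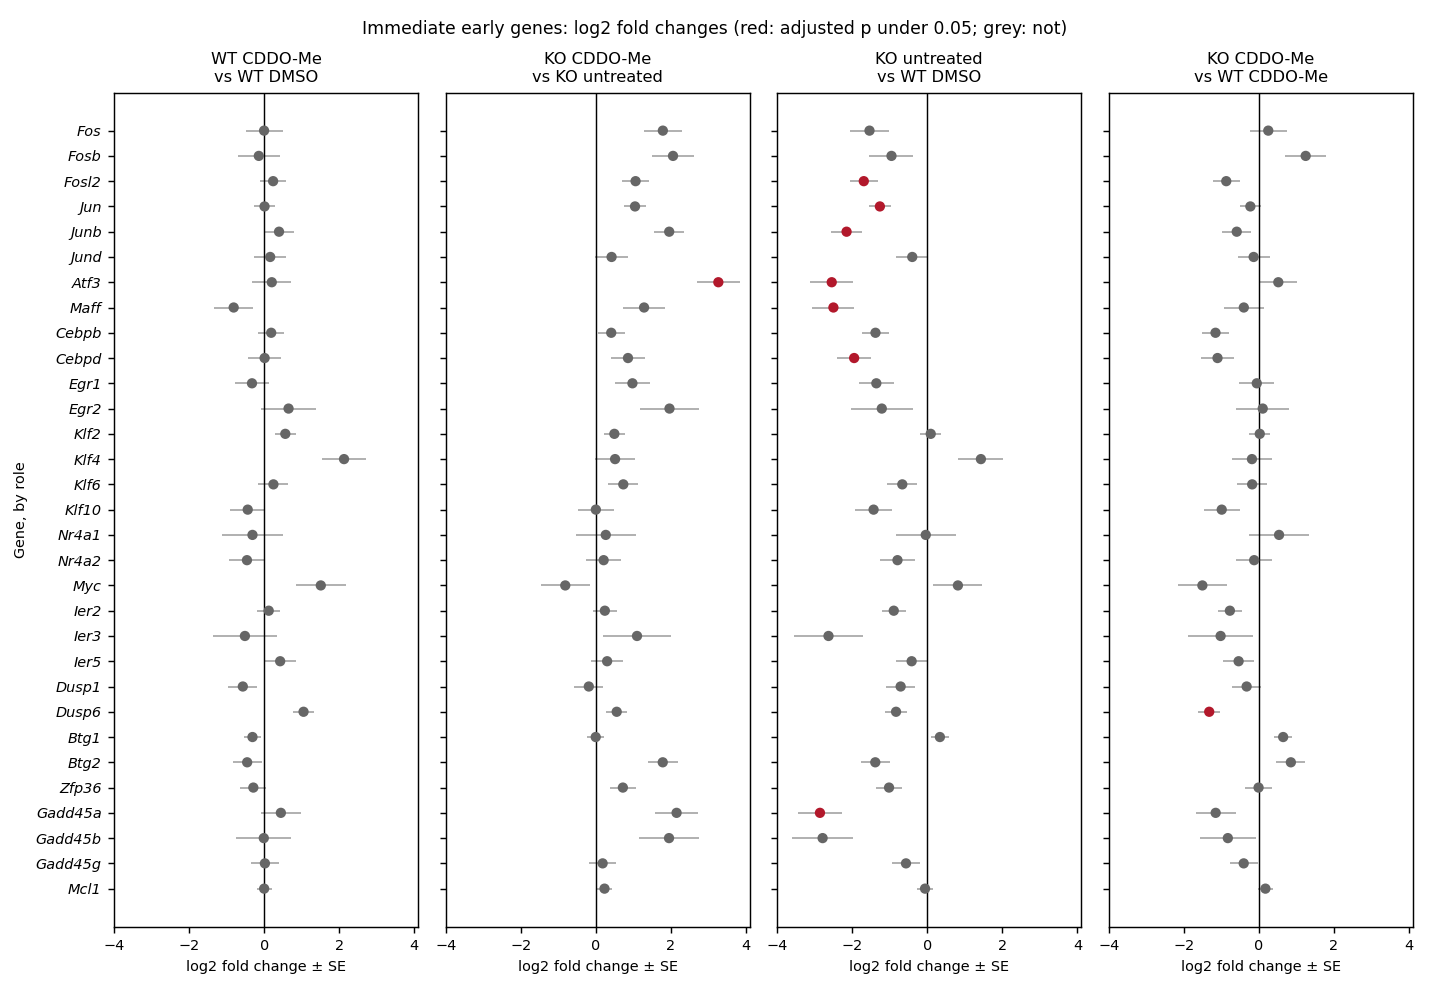
Log2 fold change with its SE for the 31 tested members in 4 comparisons (edgeR, 16 libraries); red points have an adjusted p under 0.05. The median member lies at 0.01 in WT CDDO-Me vs WT DMSO, 0.72 in KO CDDO-Me vs KO untreated, -1.02 in KO untreated vs WT DMSO and -0.23 in KO CDDO-Me vs WT CDDO-Me.

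In KO CDDO-Me against WT CDDO-Me livers, the pair in which both genotypes were injected with the drug, 1 member, Dusp6, was called and was lower (edgeR). In this pair 534 genes (3.3%) were called, 362 (2.23%) of them lower and 172 (1.06%) higher. Values were positive for 9 members and negative for 22, with a median of -0.23 against -0.01 for all genes. At an unadjusted p under 0.05, 3 members were higher (background 7.92%) and 7 lower (background 9.16%). Dusp6 had 50.1, 41.7, 34.2 and 52.9 CPM in KO CDDO-Me livers, against 123, 94.1, 129 and 103 CPM in WT CDDO-Me livers. Every KO library was below every WT library, and the log2 fold change was -1.33 ± 0.29 (adjusted p = 0.0177), a level 0.398 times that of WT CDDO-Me. The call was lost without KO CDDO-Me 2 (-1.30, adjusted p = 0.0642), KO CDDO-Me 3 (-1.22, adjusted p = 0.0696) or WT CDDO-Me 3 (-1.25, adjusted p = 0.0576).

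Other members had large but uncalled values in the same pair. Cebpb had 23.0, 29.9, 11.9 and 22.4 CPM in KO CDDO-Me livers and 44.9, 45.2, 51.6 and 53.0 CPM in WT CDDO-Me livers, without overlap (-1.16 ± 0.36, adjusted p = 0.0917). Cebpd had 9.07, 15.7, 7.23 and 15.7 CPM in KO CDDO-Me livers and 23.7, 30.1, 26.2 and 22.9 CPM in WT CDDO-Me livers, also without overlap (-1.11 ± 0.44, adjusted p = 0.197). Both C/EBP genes overlap the exons of a neighbour on the other strand, Tmem189 for Cebpb over 312 bases and Spidr for Cebpd over 562 bases. Myc did not overlap either (-1.51 ± 0.66, adjusted p = 0.246), so that 4 members lay wholly below WT, against 9.82% of all genes. Btg1, an antiproliferative relative of Btg2, had 60.0, 78.5, 64.4 and 48.4 CPM in KO CDDO-Me livers and 37.7, 52.4, 34.7 and 36.1 CPM in WT CDDO-Me livers (0.64 ± 0.23, adjusted p = 0.157). The AP-1 members Fos (0.25), Jun (-0.23), Junb (-0.59) and Jund (-0.14), together with Atf3 (0.51) and Egr1 (-0.06), had values that did not reach an unadjusted p under 0.05, while Fosb (1.24 ± 0.55) and Fosl2 (-0.87 ± 0.36) had opposite signs at an unadjusted p under 0.05. Without KO CDDO-Me 2 the Fosb value was 0.49. Mcl1 was the 1 member wholly above WT (background 9.25%), with 90.9 to 102 CPM in KO CDDO-Me and 72.9 to 90.0 CPM in WT CDDO-Me livers, yet a difference of only 0.17 ± 0.20. When the fit held only these 2 groups, 6 members passed, Btg1, Cebpb, Cebpd, Dusp6, Fosl2 and Myc. Over all genes that fit called 2045, against 534 in the main fit. Marker sums for stellate cells and fibroblasts were 316 to 461 CPM in KO CDDO-Me and 564 to 670 CPM in WT CDDO-Me, with 10 of 10 negative and 1 (Ecm1) called. Liver endothelial markers were also negative in 10 of 10, with 1 (Stab1) called and sums of 421 to 592 CPM in KO CDDO-Me and 595 to 659 CPM in WT CDDO-Me. Nuclear-retained RNAs had 8 negative of 9, with 1 (Gm26917) called and sums of 8992 to 21035 CPM in KO CDDO-Me and 28531 to 38073 CPM in WT CDDO-Me, again without overlap. Gm26917 alone held 1732 to 7765 CPM of these sums in KO CDDO-Me and 17713.5 to 27375 CPM in WT CDDO-Me. The separation of the sums therefore cannot be read as one of the whole list. Of 10 Kupffer cell markers 6 were negative, and Marco was called (-1.86, adjusted p = 0.00400), while of 12 hepatocyte markers 8 were positive, and Tat and Ass1 were called as higher. The part of these RNAs and cells in the members' values was not tested.

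The difference between the drug contrasts, WT CDDO-Me over WT DMSO minus KO CDDO-Me over KO untreated, was called for no member by edgeR, where 21 genes (0.13%) were called, all of them positive. Over all genes 1383 reached an unadjusted p under 0.05. Values were positive for 5 members and negative for 26, with a median of -0.67 against 0.01 for all genes, and 8 members were negative (background 3.57%) and 1, Myc, positive (2.32 ± 0.93; background 4.96%) at an unadjusted p under 0.05. Btg2 had the lowest p, with a contrast of -0.46 in WT and 1.78 in KO and a difference of -2.24 ± 0.55 (adjusted p = 0.146). Atf3 followed, with 0.20 in WT and 3.27 in KO and a difference of -3.07 ± 0.77 (adjusted p = 0.151). Junb had the next lowest p among the members (-1.56 ± 0.56, adjusted p = 0.397). DESeq2 called Atf3 and Btg2. Without WT CDDO-Me 1, the library with 22.1 CPM of Atf3, edgeR called Atf3 (-3.97, adjusted p = 0.0155). The KO control was uninjected and the WT control was injected, so this difference holds injection as well as genotype, and the 2 cannot be told apart. It also shares all its libraries with the comparisons above.

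Some immediate early genes outside the list were lower in KO untreated livers too. Of 50 other immediate early genes listed, 42 were tested, and 4 fell in KO untreated against WT DMSO livers (edgeR; background 0.969% lower), with 9 positive, 33 negative and a median of -0.72. Trib1, a pseudokinase gene, had 37.3 to 60.0 CPM in KO untreated, against 80.0 to 121 CPM in WT DMSO livers (-1.22 ± 0.22, adjusted p = 0.0103). Bcl3, an atypical IκB protein gene, had 8.65 to 18.3 CPM in KO untreated, against 35.1 to 127 CPM in WT DMSO livers (-2.15 ± 0.41, adjusted p = 0.0148). The kinase gene Pim3 (-1.30 ± 0.25, adjusted p = 0.0176) and Nfkbiz, the gene of IκBζ (-1.97 ± 0.42, adjusted p = 0.0271), fell as well. WT DMSO 4 was the highest WT DMSO library for all 4, with 127 CPM of Bcl3 (next 55.2) and 85.3 CPM of Nfkbiz (next 44.3). These values come from the same libraries as those of the members, and calls without single libraries were not examined for these genes. None of the 42 was called in KO CDDO-Me against KO untreated (34 positive, 8 negative, median 0.38), in WT CDDO-Me against WT DMSO (19 positive, 23 negative, median -0.10) or in the difference between them (14 positive, 28 negative). In KO CDDO-Me against WT CDDO-Me livers 1 of the 42 fell, a share near the background of 2.23% lower. It was Dusp4, a nuclear MAP kinase phosphatase gene, with 1.48 to 3.70 CPM in KO CDDO-Me and 6.15 to 9.01 CPM in WT CDDO-Me livers (-1.49 ± 0.32, adjusted p = 0.0166).

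Of 43 genes for receptors, kinases and factors that act upstream, 41 were tested and 2 fell in KO untreated against WT DMSO livers (background 0.969%). Stat3, the transcription factor of interleukin 6 signalling, had 117 to 189 CPM in KO untreated, against 251 to 517 CPM in WT DMSO livers (-1.10 ± 0.24, edgeR, adjusted p = 0.0302). The 517 CPM was that of WT DMSO 4, and the next WT DMSO library had 299. Tnfrsf1a, the main receptor for tumour necrosis factor, fell in KO untreated against WT DMSO (-1.04 ± 0.20, adjusted p = 0.0188) and in KO CDDO-Me against WT CDDO-Me livers (-0.93 ± 0.20, adjusted p = 0.0185), where it was the 1 of 41 called (background 2.23% lower). In that second pair it had 47.1 to 62.7 CPM in KO CDDO-Me and 94.4 to 125 CPM in WT CDDO-Me livers. No upstream gene was called in the other 3 comparisons. Of 28 further leucine zipper genes, 27 were tested, and the 3 called were all lower in KO CDDO-Me against WT CDDO-Me livers (background 2.23%). These were Atf5, a stress-response factor (-1.06 ± 0.24, adjusted p = 0.0220), Mafg, a small MAF partner of Nrf2 (-0.75 ± 0.18, adjusted p = 0.0280), and the repressor gene Bach2 (-0.96 ± 0.25, adjusted p = 0.0440).

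Some members share exonic bases with a gene on the opposite strand, and the labels do not say whether the counting used strand. These are Junb with Prdx2 (173 bases), Jun with Junos (232), Jund with Gm11175 (877), Gadd45a with E230016M11Rik (337), Zfp36 with Gm44710 (125) and Dusp1 with Ergic1 (11), beside the C/EBP genes named above and Fosl1 with Ccdc85b (1163). If strand was not used, reads from the shared bases cannot be assigned to one gene of a pair.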

How the data were processed

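Directional RNA libraries depleted of ribosomal RNA, per the labels' protocols, were sequenced from 16 livers. Per the submitters' processing notes, reads were handled with tools that include HTSeq 0.6.1p1, TopHat2 2.1.0, cutadapt 1.2.1, DESeq2 and CASAVA 1.8.2, with build GRCm38.p5 and no settings named. The deposited raw counts per gene were used for all main tests, and the FPKM values deposited by the authors for levels between genes and as an alternative. The length implied by counts and FPKM was constant over libraries for each member (largest relative spread 1.8e-08). It equalled the GENCODE M21 exonic length for 26 members and differed for Fosl1, Klf10, Nr4a1, Dusp1, Gadd45a and Maff.

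Of 33730 IDs, 33586 matched GENCODE M21. Low genes were removed with filterByExpr by group, leaving 16206. A quasi-likelihood model (edgeR 4.0.16, R 4.3.3) with TMM scaling held all 16 libraries in 4 groups, so that they share 1 estimate of spread with 12 residual degrees of freedom, and 5 contrasts were tested with Benjamini-Hochberg adjustment. Log2 fold changes are of the group named first over the second. The SE given with each was derived from the test, as its absolute value over the square root of the quasi-likelihood F statistic. Alternatives were RLE scaling, no filter, DESeq2 1.42.0, a replicate block, fits of the 2 groups compared, fits without 4 intron-rich libraries or without WT DMSO 4 and WT CDDO-Me 1, limma 3.58.1 on log2(FPKM + 1) and log2(FPKM + 0.1), and each library left out. The fit was tested on simulated data. Per-library values are given for members called in a comparison, the 3 with the lowest p in each, and Fos, Jun, Egr1, Atf3 and Myc; some others were named after their values were seen. The members and lists were chosen with earlier results of these data known.

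Replicate numbers were checked for pairing. Same-numbered libraries deviated together in every pair between KO untreated and WT DMSO (correlations 0.371 to 0.483 across genes). Pairs of unlike number were not compared, and libraries 1 and 2 of both groups were the intron-rich ones. The correlations therefore cannot show that a number marks a pair, and the labels do not say what it marks. The replicate block was used only in alternative fits. In the other comparisons correlations ran from -0.454 to 0.346. No 2 libraries of a group agreed within sampling noise (lowest chi-square per degree of freedom 16.7). Totals of 12002317 to 99284626 reads limit low members such as Egr2 and Fosl1 most.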

Additional observations from a re-analysis of the deposited data

Results flagged for a closer look

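In 16 of 124 combinations of member and group, 1 library lay far from the other 3 of its group, by a gap of more than 0.829 of the group's range. Chance flags about 1 in 20 groups if values are normally distributed, which was not checked for these unlogged CPM values. Members of 1 library are also not independent. WT DMSO 4 accounted for 6 of the 16: Ier3 at 19.2 CPM (next 1.64), Klf6 at 48.1 (next 14.3), Gadd45b at 30.6 (next 7.01), Maff at 25.3 (next 7.91), Klf2 at 6.61 (next 3.68) and Klf4 at 0.964 (next 0.278), all of them high. This library also had the highest sum of neutrophil and monocyte markers, 44.6 CPM, and the part of those cells in its values was not tested. WT CDDO-Me 1 was high for Atf3 at 22.1 CPM (next 5.36), Nr4a1 at 17.8 (next 5.88) and Maff at 7.65 (next 6.24).

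KO untreated 1 was high for Nr4a1 at 34.3 CPM (next 4.20) and Nr4a2 at 0.965 (next 0.386). In the KO CDDO-Me group, library 4 was high for Zfp36 at 214 CPM (next 102) and Ier3 at 4.81 (next 1.27), library 2 was high for Ier5 at 4.93 (next 2.91), and library 1 was low for Klf6 at 16.8 (next 23.7). WT CDDO-Me 4 was low for Fosl2 at 37.1 CPM (next 66.9).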

How the results depend on the processing

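No called value of a member changed sign under any alternative, and RLE scaling changed no count of members called. DESeq2 called 2 members in WT CDDO-Me against WT DMSO, 7 in KO CDDO-Me against KO untreated, 11 in KO untreated against WT DMSO, 2 in KO CDDO-Me against WT CDDO-Me and 2 in the difference between drug contrasts (edgeR 0, 1, 7, 1 and 0). With no filter the KO drug contrast had 3. With only the 2 groups in the fit, KO untreated against WT DMSO had 0 and KO CDDO-Me against WT CDDO-Me had 6. Without the 4 intron-rich libraries these 2 contrasts had 0 and 3, and the KO drug contrast 0. Leaving out both WT CDDO-Me 1 and WT DMSO 4, the KO drug contrast had 4 and the difference 1. In limma on log2(FPKM + 1), or + 0.1, KO untreated against WT DMSO had 3 (both) and KO CDDO-Me against WT CDDO-Me 0 (both), and with + 1 the KO drug contrast had 0. The cause was not tested. Leaving out 1 library gave 0 to 1, 0 to 4, 0 to 8, 0 to 2 and 0 to 1 calls.

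With the replicate block the KO drug contrast had 2 (Atf3, Btg2), KO untreated against WT DMSO 8 and the difference 1 (Btg2), while the 2 other counts were unchanged. Whether libraries of the same number share more than that number is not known for any comparison. With the block in a fit of KO untreated and WT DMSO alone, chosen after seeing the data, 10 were called, 4 of the 7 among them.

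Counts over all genes (118, 21, 223, 534 and 21 in the same order) were 471, 298, 657, 1125 and 176 with DESeq2 and 226, 46, 250, 811 and 42 with the block. In fits of 2 groups the first 4 were 72, 22, 20 and 2045. Without the intron-rich libraries they were 124, 4, 86, 1482 and 67, and without WT DMSO 4 and WT CDDO-Me 1 they were 104, 88, 185, 510 and 26. With no filter they were 135, 51, 239, 406 and 38, and in limma on log2(FPKM + 1) 107, 67, 251, 959 and 57.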
